A study of Mus musculus with 6 samples.

Results

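The transcripts of 8 genes for neurotrophic factors and their receptors were followed in single cells of the mouse bladder mucosa. The genes were Bdnf (brain-derived neurotrophic factor), Ntf3 (neurotrophin-3), Gdnf (glial cell line-derived neurotrophic factor), Ngfr (the p75 receptor shared by the neurotrophins), Ntrk2 (TrkB, the receptor kinase for brain-derived neurotrophic factor), Nrn1 (neuritin), Ptn (pleiotrophin) and Mdk (midkine). They were listed by name and matched by Ensembl identifier, with no threshold on a measured value. Of the 8 genes, 6 were among the 14338 genes that all libraries list, while Gdnf was listed in 4 libraries and Ntrk2 in 3.

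The libraries came from wild-type C57BL/6 mice of 8 weeks, 2 libraries for each of 3 conditions. Healthy mice received no drug. Acutely injured mice received 1 intraperitoneal dose of 150 mg/kg cyclophosphamide (CPP), an alkylating drug whose metabolites reach the urine and damage the bladder lining, and were taken 48 h later. Chronically injured mice received 4 doses of 75 mg/kg and were taken 48 h after the last. Each group held mice of both sexes and more mice than libraries, the sources used here do not say which mice went into which library, and the muscle layer had been peeled away before digestion. The nuclei of sensory neurons lie in ganglia outside the bladder, and the fixed neuron and Schwann cell markers formed no class of cells in these data, so the mucosal sources of the factors were measured here without their neuronal targets.

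Neurotrophins are secreted growth factors that bind Trk receptor kinases and the p75 receptor and maintain sensory and autonomic neurons. Ligands of the glial cell line-derived family act through GFR alpha co-receptors and the Ret kinase. Pleiotrophin and midkine are heparin-binding factors that act on receptor phosphatases, syndecans and LRP1, and neuritin is a small protein anchored to the cell surface that promotes the growth of neurites. In the bladder the mucosa is densely innervated, and neurotrophins from its cells are known for their part in bladder sensation and inflammation.

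In these data Bdnf, Ntf3, Ptn and Mdk were highest, among the 5 large classes of cells, in myofibroblasts, the mesenchymal cells with Acta2 and Car3. Nrn1 was highest in basal urothelial cells and fell layer by layer toward the lumen. Ngfr was a gene of few counts, most of them in basal and intermediate cells and myofibroblasts, Gdnf was counted mostly in the myofibroblasts of 1 healthy library, and most of the Ntrk2 UMIs of 1 acute library were in its mural and smooth muscle cells. No member changed after CPP past the threshold of the test.

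The genes lie apart on the genome (GRCm38, GENCODE M21). Bdnf is at chr2:109674700-109727007 on the plus strand, Ntf3 at chr6:126101412-126166910 on the minus strand, Gdnf at chr15:7810846-7837575 on the plus strand and Ngfr at chr11:95568818-95587735 on the minus strand. Ntrk2 is at chr13:58806569-59133970 on the plus strand, Nrn1 at chr13:36725361-36735131 on the minus strand, Ptn at chr6:36714929-36810220 on the minus strand and Mdk at chr2:91929805-91932297 on the minus strand. The assay counts unique molecular identifiers (UMIs) near the 3′ end of a transcript, so it does not show which of several start sites was used.

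Because Bdnf, Ntf3 and Ptn stood together in the myofibroblasts, the bases before one of the start sites of each are shown, 5′ to 3′ on the gene's strand, from RefSeq (GRCm38.p6). Capitals mark matches, on either strand, to AP-1 (TGANTCA), TEAD (GGAATG), the CRE core (TGACG), the CArG box, the GC box (GGGCGG) or the TATA box (TATAAA). The windows are chr2:109676782-109677031 (plus) for Bdnf, chr6:126164961-126165210 (minus) for Ntf3 and chr6:36810221-36810429 (minus) for Ptn, without bases that GENCODE places in an exon.
Bdnf: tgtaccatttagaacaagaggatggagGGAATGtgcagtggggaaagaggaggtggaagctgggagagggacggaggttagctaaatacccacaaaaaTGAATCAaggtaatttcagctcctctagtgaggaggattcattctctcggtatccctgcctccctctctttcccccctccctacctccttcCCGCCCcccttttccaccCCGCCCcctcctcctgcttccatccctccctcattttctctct
Ntf3: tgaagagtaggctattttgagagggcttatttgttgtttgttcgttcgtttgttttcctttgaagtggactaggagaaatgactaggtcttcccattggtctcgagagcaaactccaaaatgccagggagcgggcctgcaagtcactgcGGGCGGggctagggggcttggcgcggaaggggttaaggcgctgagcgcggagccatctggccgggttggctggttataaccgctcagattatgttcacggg
Ptn: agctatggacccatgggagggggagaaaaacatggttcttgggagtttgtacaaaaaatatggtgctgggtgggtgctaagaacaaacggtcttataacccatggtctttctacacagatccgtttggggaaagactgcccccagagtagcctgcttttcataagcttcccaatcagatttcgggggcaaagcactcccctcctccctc
The Bdnf window is the one of its 7 RefSeq start sites with the most matches, 1 to AP-1, 1 to TEAD and 2 to the GC box. The Ntf3 window holds 1 GC box, and the Ptn window holds none of the motifs. Over 32851 promoter windows of 250 bases, 6.75% held AP-1, 12.6% TEAD, 17.8% the CRE core, 1.47% a CArG box, 32.7% a GC box and 12.4% a TATA box. The GC box is the only motif found in both the Bdnf and the Ntf3 window, and a match is only a match of letters. Of the 8 genes 6 had RefSeq windows, and the RefSeq table used here was not complete, so no window is shown for Mdk and Nrn1.

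The 6 libraries held 5348 to 15062 cell barcodes and 54604109 to 111985678 UMIs, with a median of 5530 to 9138 UMIs per cell, and library pairs shared 36 to 208 barcodes. Levels are given in counts-per-million units (CPM), the UMIs of a gene relative to all UMIs that a library holds in the cells of the class, over the genes kept. They can be compared for 1 gene between classes, not between genes. Each class of cells held its defining markers: the 8 mesenchymal markers summed to 36339 to 57977 CPM in myofibroblasts and to 238 to 972 CPM in basal cells, and the 6 myofibroblast markers to 8142 to 22132 CPM in myofibroblasts and to 373 to 2144 CPM in fibroblasts. The fibroblasts of chronic replicate 2 stood apart, with 55 cells, a mesenchymal marker sum of 12103 CPM against a median of 35630 CPM and a urothelial marker sum of 10555 CPM against a median of 3299 CPM. The study processed its samples in batches, and the labels do not say which library was in which batch, so batch and condition cannot be told apart here.

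Bdnf, the neurotrophin that binds TrkB and p75, was at its highest mean level in myofibroblasts, which held 89.2%, 44.8%, 59.5%, 73.9%, 23.3% and 40.3% of its UMIs in healthy replicates 1 and 2, acute replicates 1 and 2 and chronic replicates 1 and 2. In chronic replicate 1 the far more numerous intermediate cells held as many, 23.3%. Its level there was 85.9 and 27.8 CPM in healthy replicates 1 and 2, 107 and 24.3 CPM in the acute replicates and 33.8 and 83.8 CPM in the chronic replicates, a mean of 60.4 ± 35.9 CPM (SD, n = 6). In fibroblasts of the same libraries it was 3.42, 0.346, 5.99, 2.64, 2.26 and 14.0 CPM, the last from 3 UMIs in chronic replicate 2. The classes did not overlap, while the libraries of each condition spread over most of the range of the myofibroblast levels. On sums of the same library, edgeR's quasi-likelihood test gave a log2 fold change of -4.17 ± 0.26 (SE) for fibroblasts over myofibroblasts with an adjusted p of 2.5e-08. Between 5.59% and 25.5% of myofibroblasts held a Bdnf UMI, at a median of 2129 to 3875 UMIs per cell, and 0% to 1.02% of superficial cells at a median of 6669 to 10757 UMIs. Thinned to 2000 UMIs per cell, the share in myofibroblasts was 4.10% to 15.9%. Dividing mesenchymal cells held 12.2 CPM of Bdnf in healthy replicate 1 (28 cells) and 46.6 CPM in acute replicate 2 (53 cells). The latter was above the 24.3 CPM of the myofibroblasts of that library. None of the 5 libraries with enough endothelial cells held a Bdnf UMI in them, which in the deepest, acute replicate 2, allows up to 4.85 CPM.

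Ntf3, the ligand of TrkC, was as unequal between the mesenchymal classes. Myofibroblasts held 36.6 and 19.2 CPM in the healthy libraries, 41.8 and 43.6 CPM in the acute and 14.5 and 8.67 CPM in the chronic libraries, where each value rests on 3 UMIs. Fibroblasts held 0 to 3.01 CPM, the 0 in chronic replicate 2. The log2 fold change of fibroblasts over myofibroblasts was -4.34 ± 0.26 for Ntf3 (edgeR, adjusted p = 1.71e-08). It is a description, since fibroblasts held only 17 Ntf3 UMIs in all 6 libraries. Ntf3 also stood in the mural and smooth muscle cells, 1 class led by Pln, Des and Myh11 of smooth muscle beside Higd1b and Cox4i2 of pericytes, at 28.2 CPM in acute replicate 1 (3 UMIs) and 53.0 CPM in acute replicate 2 (13 UMIs), the only libraries with 20 cells of this class. The 8 mural and smooth muscle markers summed to 68.5 to 381 CPM in myofibroblasts and to 2180 to 5674 CPM in the class itself, and their part in the Ntf3 level was not tested.

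Ptn was shared between myofibroblasts and endothelial cells. In myofibroblasts it was 89.8 and 51.3 CPM in healthy, 126 and 110 CPM in acute and 9.65 and 80.9 CPM in chronic libraries, the 9.65 CPM from 2 UMIs in 88 cells. Fibroblasts held 0 to 10.2 CPM, which only the myofibroblasts of chronic replicate 1 did not exceed, and in each library myofibroblasts were the higher class. The log2 fold change over myofibroblasts was -4.19 ± 0.30 (edgeR, adjusted p = 7.8e-08). Endothelial cells held 28.5 to 116 CPM of Ptn in 5 libraries, a mean of 81.2 ± 34.9 CPM, which overlapped the myofibroblasts, at a mesenchymal marker sum of 3514 to 9033 CPM. Dividing mesenchymal cells held 116 CPM in healthy replicate 1 (28 cells) and 568 CPM in acute replicate 2 (53 cells). Dividing basal cells held 5.46 to 66.1 CPM of Ptn, above the 0 to 2.80 CPM of the other basal cells in each library, and highest in healthy replicate 1, where 31 of 97 cells held a UMI (32.0%, 95% Wilson interval 23.5% to 41.8%).

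Mdk was the member counted in the largest share of mesenchymal cells. Myofibroblasts held 369 and 365 CPM in healthy, 367 and 679 CPM in acute and 299 and 373 CPM in chronic libraries, with a UMI in 43.2% to 81.6% of cells (41.3% to 66.2% when thinned). Fibroblasts held 79.8, 79.5, 76.8, 252, 67.4 and 42.0 CPM in the same order. Acute replicate 2 was the highest library in both classes, and no fibroblast level reached a myofibroblast level. The fibroblasts of acute replicate 2 had a myofibroblast marker sum of 2144 CPM, against 373 to 811 CPM in the other libraries. They also held the highest fibroblast levels of Ptn, 10.2 CPM, and Ntf3, 3.01 CPM. The log2 fold change of Mdk was -2.14 ± 0.16 (edgeR, adjusted p = 1.23e-07), smaller in size than those of Bdnf, Ntf3 and Ptn.

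**Figure D1:**
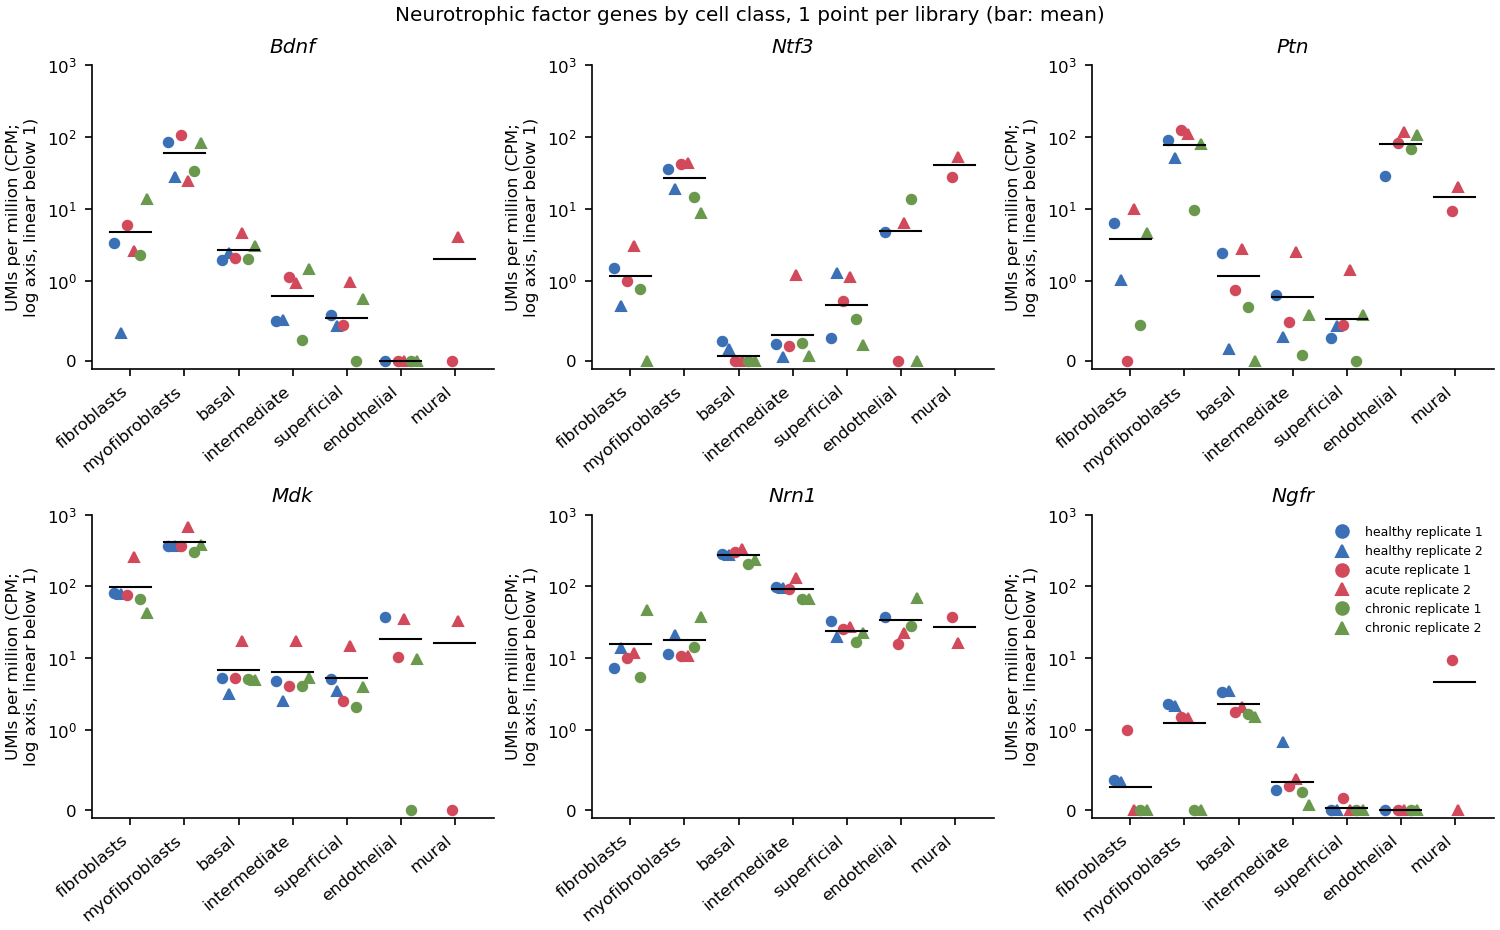
Level of 6 members in 7 classes of cells, in CPM of the class sum on an axis that is logarithmic above 1 and linear below, with 1 point per library of 20 or more cells, coloured by condition, and a bar at the mean over libraries (mural stands for mural and smooth muscle cells). The myofibroblast points of Bdnf, Ntf3 and Mdk lie above all fibroblast points, the Ptn point of chronic replicate 1 (9.65 CPM) lies just under the highest fibroblast point (10.2 CPM), and the Nrn1 points are highest in basal cells at 204 to 331 CPM.

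Of the 5 members tested between fibroblasts and myofibroblasts, 4 were lower in fibroblasts with an adjusted p under 0.05, while over all genes tested 19.4% were called (2111 of 10891). Nrn1 was the exception at -0.32 ± 0.22 (edgeR, adjusted p = 0.366), and Ngfr was under the filter on low counts. Bdnf, Ntf3 and Ptn had at most 27 UMIs in any fibroblast sum and passed that filter chiefly through the myofibroblasts, so the count of members called is a description. Without chronic replicate 2, whose fibroblasts stood apart, the log2 fold changes were -4.27 for Bdnf, -4.31 for Ntf3, -4.16 for Ptn and -2.02 for Mdk, and 4 members were called. UMIs of more than 1 of the factors were found in some cells: 35.6%, 8.78%, 40.4%, 33.8%, 1.14% and 22.3% of myofibroblasts (healthy 1 and 2, acute 1 and 2, chronic 1 and 2) held UMIs of 2 or more of Bdnf, Ntf3, Ptn and Mdk, against 0% to 1.82% of fibroblasts, the highest from 1 of the 55 cells of chronic replicate 2. All 4 were found together in 5 of 1050, 0 of 376, 2 of 161, 10 of 2722, 0 of 88 and 0 of 103 myofibroblasts, and a Mdk UMI was in 43.2% to 81.6% of them. The shares with 2 or more were lowest in healthy replicate 2 and chronic replicate 1, the libraries with the fewest UMIs per myofibroblast (medians of 2260.5 and 2129).

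Within the myofibroblasts, 4 sub-clusters differed in Bdnf. The sub-cluster led by Gatm, Tnc and Mt3 held 91.5 CPM over all its cells and that led by Wisp2, Moxd1 and Cxcl10 held 57.8 CPM, against 20.4 CPM in the sub-cluster led by Gatm, Tnc and Cdkn2a and 16.4 CPM in that led by Car3, Tnc and Lrat. The Gatm, Tnc and Mt3 sub-cluster was the highest in each of the 3 libraries that had 20 or more cells of all 4. In healthy replicate 1 the Gatm, Tnc and Mt3 sub-cluster held 143 CPM and the others 38.4, 35.6 and 64.9 CPM, in healthy replicate 2 it held 82.0 CPM and the others 28.0, 13.1 and 24.6 CPM, and in acute replicate 2 it held 50.7 CPM and the others 17.4, 11.4 and 33.8 CPM. In acute replicate 1 it was level with the Wisp2, Moxd1 and Cxcl10 sub-cluster, at 131 and 134 CPM. Of the 1458 cells of the Gatm, Tnc and Cdkn2a sub-cluster, where Ptn was highest at 154 CPM over all cells, 1223 came from acute replicate 2, so the sub-clusters are unequally filled and no test was made between them. The lower Bdnf level of acute replicate 2 in all myofibroblasts stands beside this composition, whose part was not tested.

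Among the 3 fibroblast sub-clusters, Mdk was 67.4 and 77.5 CPM in those led by Pcolce2 and Bglap2 and 298 CPM in that led by the globin genes Hba-a2 and Hbb-bs. The 298 CPM rest on acute replicate 2, which had 681 of its cells and 389.6 CPM, against 137 to 206 CPM in the other 4 libraries with 20 or more cells. The globin-led sub-cluster also held more of the myofibroblast markers Car3 (594 CPM, against 32.9 and 33.5 CPM) and Cxcl14 (1104 CPM, against 202 and 252 CPM). Ptn and Ntf3 were also higher there, Ptn at 17.1 CPM against 0.890 and 1.35 CPM and Ntf3 at 5.26 CPM against 0.356 and 0.810 CPM. By library, Ptn in the globin-led sub-cluster ran from 0 to 64.1 CPM, the highest in healthy replicate 1 (14 UMIs in 70 cells). Bdnf was 2.31 to 3.24 CPM in all 3.

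**Figure D2:**
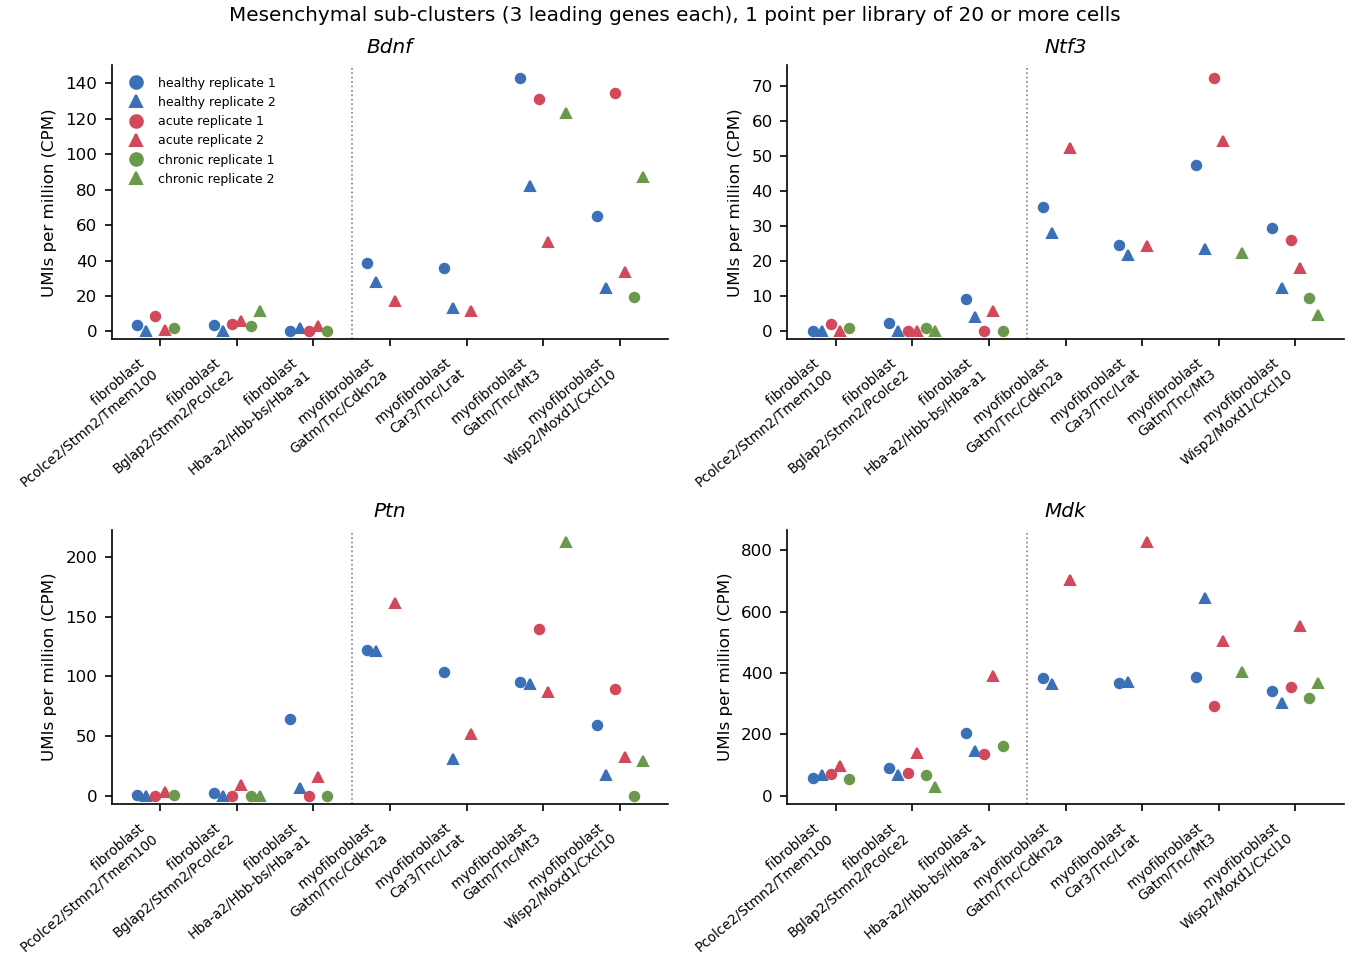
Level of Bdnf, Ntf3, Ptn and Mdk, in CPM on linear axes, in 3 fibroblast and 4 myofibroblast sub-clusters named by their leading genes, with 1 point per library that has 20 or more cells there. The dotted line parts fibroblasts from myofibroblasts. Bdnf points of the Gatm, Tnc and Mt3 sub-cluster reach from 50.7 to 143 CPM, and all fibroblast points are lower.

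Between mesenchymal and urothelial cells, 5 of the 6 members tested were called, where 69.4% of all genes were (9712 of 14000). In the comparisons between conditions, Ntf3 passed the filter on low counts in myofibroblasts and in no urothelial layer, so this count too is a description. Mdk was higher in mesenchymal cells by a log2 fold change of 5.35 ± 0.21 (edgeR, adjusted p = 1.21e-08), Ptn by 5.76 ± 0.26 (2.36e-08), Ntf3 by 5.32 ± 0.38 (6.18e-07) and Bdnf by 4.64 ± 0.42 (3.26e-06). Nrn1 was lower by a log2 fold change of -3.11 ± 0.30 (5.09e-06), and Ngfr at 0.65 ± 0.46 was not called (0.23). The Mdk level of the basal layer was 0.880% to 2.54% of the myofibroblast level of the same library, the share of Dcn, a collagen-binding protein of mesenchymal cells, was 0.724% to 2.64%, and that of Acta2 was 0.25% to 2.26%. The median share was 1.45% for Mdk, 1.48% for Dcn, 1.20% for Col3a1, 0.655% for Acta2, 0.590% for Col1a1, 0.273% for Cxcl14 and 0.216% for Car3, and in acute replicate 1 Mdk was at 1.455%, Dcn at 0.724% and Car3 at 0.125%. The part of free RNA in the urothelial Mdk level was not tested. The Bdnf level of the basal layer was a larger share, 1.94% to 19.2%, median 4.83%, against a median of 1.48% for Dcn.

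Nrn1 was highest in the basal layer of the urothelium. Its superficial level, 16.6 to 32.9 CPM, overlapped that of myofibroblasts, 10.8 to 37.6 CPM. NK and T cells, at 57.5 to 98.9 CPM, were above the superficial cells. Basal cells held 281 and 273 CPM in healthy, 301 and 331 CPM in acute and 204 and 236 CPM in chronic libraries, a mean of 271 ± 45.2 CPM. Intermediate cells held 99.3, 95.7, 92.8, 129, 66.0 and 66.9 CPM and superficial cells 32.9, 19.5, 25.2, 27.6, 16.6 and 22.3 CPM in the same order. The layers did not overlap, and the steps between them had the same direction in all 6 libraries. The log2 fold change was 1.5 ± 0.06 for basal over intermediate cells (edgeR, adjusted p = 4.25e-13) and -1.87 ± 0.09 for superficial over intermediate cells (1.01e-10). A Nrn1 UMI was found in 42.8% to 73.4% of basal, 21.8% to 47.5% of intermediate and 9.30% to 26.1% of superficial cells, and thinned to 2000 UMIs per cell in 32.2% to 46.8%, 12.8% to 23.4% and 3.10% to 6.23%. Dividing basal cells held 167 to 210 CPM.

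Outside the urothelium Nrn1 is given beside urothelial genes that the other cells should lack. In fibroblasts it was 6.26% to 61.9% of the level of all urothelial cells of the library and in myofibroblasts 8.15% to 49.9%, where Krt5, a keratin of basal cells, was at 6.28% to 71.5% and 7.68% to 38.5%. The highest fibroblast level, 46.6 CPM, was that of chronic replicate 2, whose fibroblasts had the highest urothelial marker sum. NK and T cells held 57.5 to 98.9 CPM of Nrn1, 43.2% to 78.3% of the urothelial level, beside 35.4% to 86.0% for Krt5 and 23.1% to 70.0% for Upk1b. Endothelial Nrn1 was at 15.4% to 91.2% beside 17.0% to 73.4% for Krt5. The part of free RNA in these Nrn1 levels, and in that of superficial cells, was not tested.

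Bdnf and Ngfr showed the same side of the basal step at low counts. Bdnf was 1.95, 2.44, 2.08, 4.67, 2.03 and 3.05 CPM in basal cells (6 to 20 UMIs per library) and 0.264 to 1.45 CPM in intermediate cells. The log2 fold change was 1.76 ± 0.29 (edgeR, adjusted p = 5.56e-05), and basal exceeded intermediate in 6 of 6 libraries. Ngfr was 3.41 and 3.51 CPM in healthy, 1.78 and 2.1 CPM in acute and 1.70 and 1.52 CPM in chronic basal cells (4 to 23 UMIs) against 0.0579 to 0.856 CPM in the intermediate layer. Its log2 fold change was 2.63 ± 0.33 (edgeR, adjusted p = 2.72e-06). In superficial cells 1 Ngfr UMI was counted in all libraries together. Between 0.420% and 1.41% of basal cells held an Ngfr UMI.

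**Figure D3:**
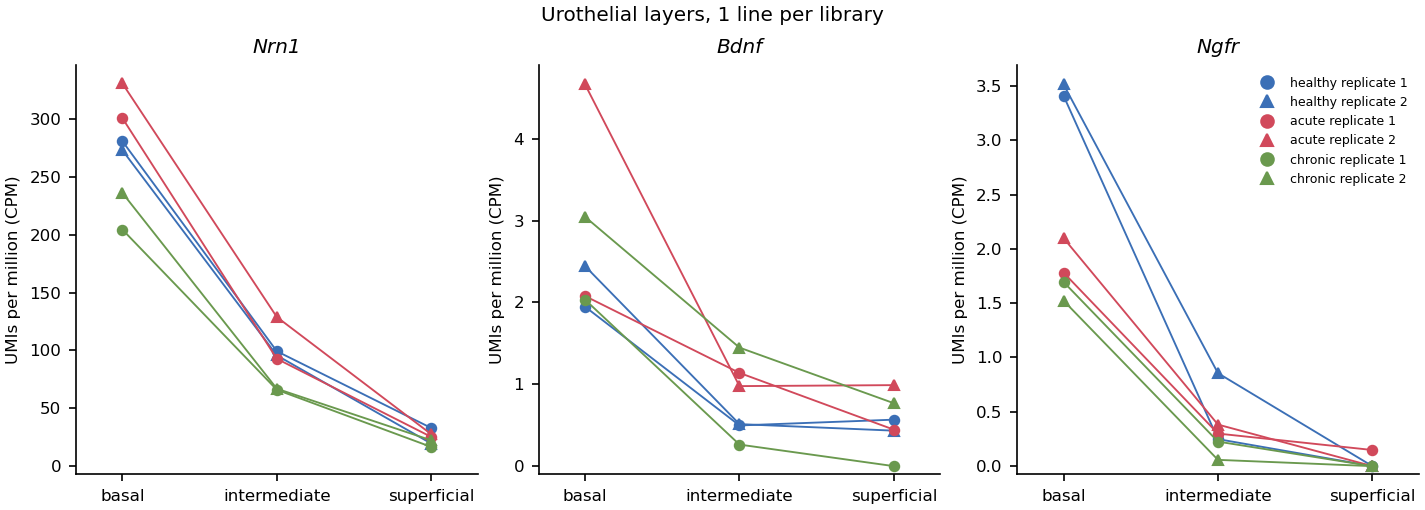
Level of Nrn1, Bdnf and Ngfr in the basal, intermediate and superficial layers, in CPM on linear axes whose ranges differ between genes, with 1 line per library coloured by condition. Nrn1 falls from 204 to 331 CPM in basal to 16.6 to 32.9 CPM in superficial cells in each library.

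Of the 5 members tested between basal and intermediate cells, 3 were called, where 46.2% of all genes were (5982 of 12950). In the comparisons between conditions, Ngfr passed the filter on low counts in basal cells and not in intermediate cells. It entered this count chiefly through the layer where it is high, so the count is a description. Ptn at 0.48 ± 0.41 (edgeR, adjusted p = 0.367) and Mdk at 0.06 ± 0.14 (0.879) were not. Between superficial and intermediate cells Nrn1 was the only called member of 5, where 51.7% of all genes were (6719 of 13003). Bdnf was at -0.58 ± 0.39 (edgeR, adjusted p = 0.232), Ptn at -0.57 ± 0.38 (0.224), Mdk at -0.30 ± 0.16 (0.136) and Ntf3 at 0.98 ± 0.52 (0.127). Basal and intermediate cells were parted by sub-cluster, from the basal and luminal marker scores of their cells, and 2463 of 32002 cells (7.70%) had scores within 0.1 of each other.

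Gdnf, the ligand of Ret and GFR alpha 1, was rare. In healthy replicate 1 the myofibroblasts held 25 of the library's 26 UMIs, in 24 of 1050 cells (2.29%, Wilson interval 1.54% to 3.38%), a level of 5.79 CPM. In acute replicate 2 they held 5 UMIs in 2722 cells (0.468 CPM), and in healthy replicate 2 and chronic replicate 1 they held 0 UMIs in 376 and 88 cells, which allows up to 3.21 and 14.5 CPM. The healthy libraries therefore differed from each other, and since Gdnf was not listed in acute replicate 1 and chronic replicate 2 it was not compared between conditions.

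Ntrk2, the receptor for brain-derived neurotrophic factor, had its highest level in mural and smooth muscle cells. In acute replicate 2 they held 14 of the library's 25 UMIs, in 11 of 116 cells (9.48%, Wilson interval 5.38% to 16.2%), a level of 57.1 CPM. Myofibroblasts of that library held 0.468 CPM, basal cells 0.700 CPM and fibroblasts 0 UMIs, which allows up to 1.13 CPM. In healthy replicate 2 and chronic replicate 2 Ntrk2 had 1 and 4 UMIs in all, of which 2 UMIs in 1 cell made the myofibroblast level of chronic replicate 2 5.78 CPM, and neither library had 20 cells of that class. The level thus rests on 1 library and has no replicate.

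The other genes of the neurotrophic pathways were followed with a fixed list of 58 genes that holds the 8 members: 18 ligands, 30 receptors and co-receptors, and 10 adaptors and processing enzymes. Between fibroblasts and myofibroblasts 38 were tested, of which 8 were higher and 11 lower in fibroblasts, where 931 of 10891 genes were higher and 1180 lower (19.4% called), with a median log2 fold change of -0.137 against -0.00258 over all genes. Gdf15, a ligand of the distant receptor GFRAL, was higher in fibroblasts, at 6.92 to 72.4 CPM against 1.07 to 14.5 CPM (2.65 ± 0.27, adjusted p = 4.01e-06).

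Of the receptor subunits for the ciliary neurotrophic factor family, Cntfr and Lifr were higher in myofibroblasts, while Il6st, the shared signalling subunit gp130, was not called at -0.06 ± 0.13 (edgeR, adjusted p = 0.817). Cntfr, the ligand-binding subunit, was at 6.42 to 27.8 CPM in myofibroblasts and 0 to 4.94 CPM in fibroblasts (-2.55 ± 0.31, edgeR, adjusted p = 2.58e-05), and Lifr was lower in fibroblasts by -0.88 ± 0.21 (0.00658). Sort1, a co-receptor for pro-neurotrophins, was lower in fibroblasts by -1.69 ± 0.33 (edgeR, adjusted p = 0.00171) and Sorcs2, of the same receptor family, by -1.04 ± 0.17 (0.000365).

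**Figure D4:**
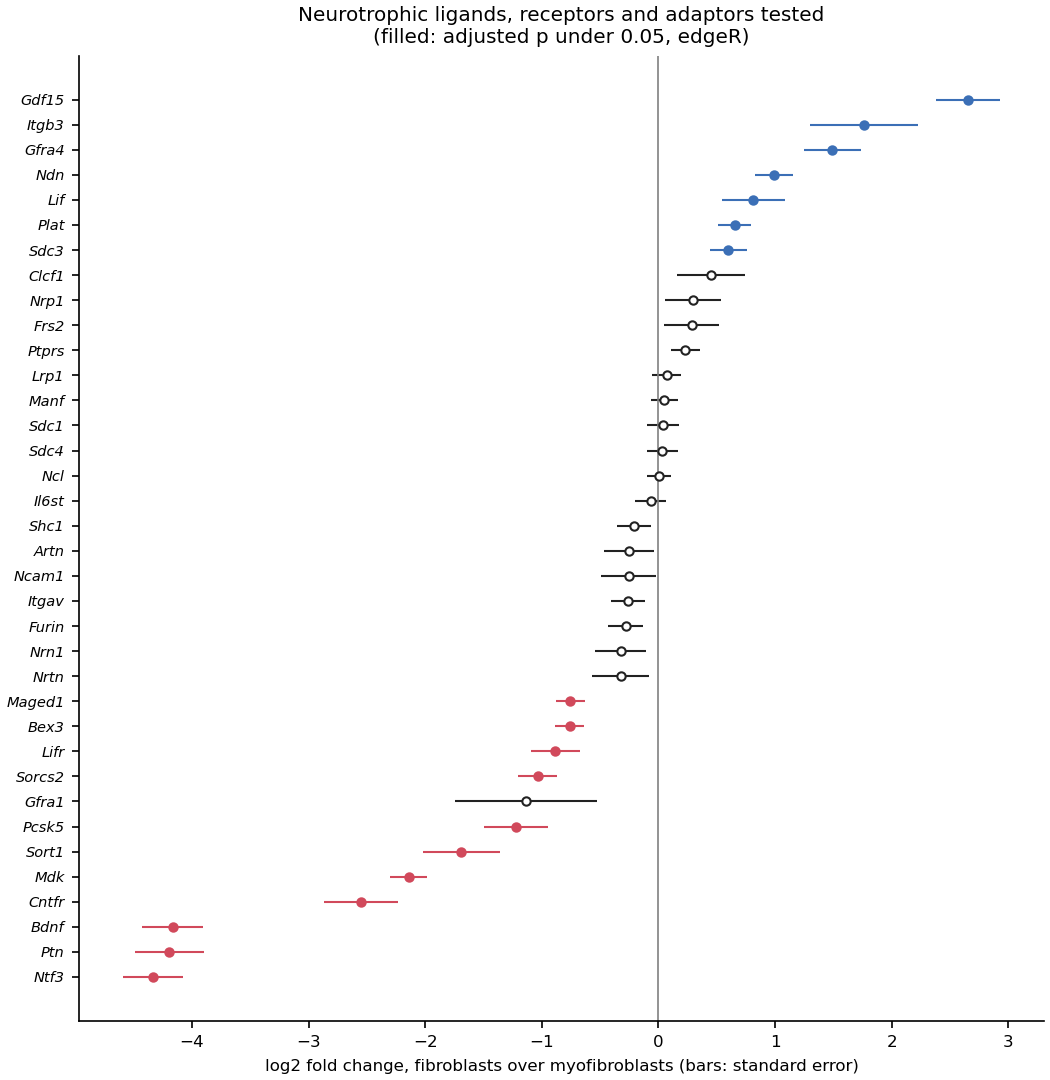
Log2 fold change of fibroblasts over myofibroblasts, with standard errors, for most of the pathway genes tested with edgeR on sums of the same 6 libraries. Coloured points have an adjusted p under 0.05, on the fibroblast side in blue and on the myofibroblast side in red, with Ntf3 at -4.34 and Gdf15 at 2.65.

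Between mesenchymal and urothelial cells, 28 of 45 pathway genes tested were higher in mesenchymal and 9 in urothelial cells, where 4500 of 14000 genes were higher and 5212 lower in mesenchymal cells (69.4% called; median log2 fold change 0.89, against -0.10 over all genes). Beside the members, the midkine receptor Lrp1 (2.22 ± 0.10, edgeR, adjusted p = 1.87e-08) was on the mesenchymal side. The urothelial side held Ntf5, which encodes neurotrophin-4 (-2.37 ± 0.27, 1.6e-05), Sdc1, a syndecan (-2.54 ± 0.26, 9.12e-06), Gfra1, the co-receptor for Gdnf (-1.77 ± 0.37, 0.00139), and Nrtn, the gene of the related ligand neurturin (-1.41 ± 0.15, 9.4e-06). Ntf5 was at 14.9 to 29.3 CPM in basal, 7.83 to 11.4 CPM in intermediate and 5.64 to 11.35 CPM in superficial cells.

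By layer, 18 of 38 pathway genes tested were higher and 4 lower in basal than in intermediate cells, where 3067 of 12950 genes were higher and 2915 lower (46.2% called; median log2 fold change 0.217, against 0.00107 over all genes). Gfra1 was at 14.6 to 62.8 CPM in basal and 8.08 to 31.6 CPM in intermediate cells (0.91 ± 0.09, edgeR, adjusted p = 8.42e-08), Ntf5 was higher in basal cells by 0.94 ± 0.12 (4.42e-06) and Bex3, an adaptor of p75, by 1.23 ± 0.05 (1.32e-12). In superficial cells 6 of 39 pathway genes tested were higher and 18 lower than in intermediate cells, where 3109 of 13003 genes were higher and 3610 lower (51.7% called; median -0.32, against -0.02 over all genes). Nrtn was at 38.05 to 93.0 CPM in superficial and 15.2 to 22.1 CPM in intermediate cells (1.92 ± 0.11, edgeR, adjusted p = 2.63e-10), and Sdc1, Clcf1 and Sorcs2 were lower by -1.24 ± 0.10, -1.87 ± 0.14 and -2.18 ± 0.18 (1.34e-08, 1.04e-08 and 2.81e-08).

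The conditions were compared within each class, 2 libraries against 2 with the spread estimated over all 6, to ask whether injury moved the members. None of 38 member values in 10 comparisons had an adjusted p under 0.05 with edgeR (the smallest was 0.684), and 3 had an unadjusted p under 0.05; DESeq2 called none. Over all genes edgeR called 1 gene in acute fibroblasts (0.00909% of 11000), 1 in chronic fibroblasts (0.00909%), 1 in acute myofibroblasts (0.0118% of 8463) and 0 (0%) in chronic myofibroblasts and in all 6 urothelial comparisons, while 237 to 805 genes per comparison had an unadjusted p under 0.05 and DESeq2 called 5 to 58. With so few calls at all, a p that misses the threshold does not show that a member did not differ. The test of whether the change differed between fibroblasts and myofibroblasts called 0 genes (0%) in both conditions, and none of the 10 member values had an unadjusted p under 0.05 (the smallest was 0.064, for Bdnf in the chronic comparison, at 1.65 ± 0.82).

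Ntf3 in myofibroblasts lay on opposite sides of healthy in the 2 injuries, without passing the test. The acute libraries (41.8 and 43.6 CPM) lay above the healthy ones (36.6 and 19.2 CPM) and the chronic ones (14.5 and 8.67 CPM) below, with log2 fold changes of 0.58 ± 0.38 and -1.43 ± 0.59 (edgeR, unadjusted p = 0.164 and 0.0387; adjusted p = 0.684 for the latter). Ptn in myofibroblasts was higher in both acute libraries than in both healthy ones, by 0.74 ± 0.57, and Nrn1 there was lower, by -0.46 ± 0.50 at 10.8 CPM in each acute library against 11.3 and 21.4 CPM. With Ntf3, 3 of 5 members tested did not overlap in the acute comparison, where 30.7% of all genes did not, and 1 of 5 in the chronic comparison, where 35.9% did not. Bdnf overlapped in both, with differences of 0.06 ± 0.74 and 0.03 ± 0.81, whose errors allow a change of over 1 log2 unit either way.

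The libraries filled the myofibroblast sub-clusters unequally. Acute replicate 2 had 1223 cells in the Gatm, Tnc and Cdkn2a sub-cluster, the highest in Ptn, and 780 in the Car3, Tnc and Lrat sub-cluster. Acute replicate 1 and the chronic libraries reached 20 cells only among the other 2, and the healthy libraries in every one. Within the Wisp2, Moxd1 and Cxcl10 sub-cluster, the only one with 20 cells in all 6 libraries, Ntf3 was 29.4 and 12.3 CPM in healthy, 26.1 and 18.2 CPM in acute and 9.68 and 4.84 CPM in chronic libraries, the chronic values from 1 UMI each. Ptn there was 59.6 and 17.2 CPM in healthy and 89.6 and 32.5 CPM in acute libraries. Acute and healthy libraries thus overlapped for both genes within that sub-cluster. The Gatm, Tnc and Mt3 sub-cluster also had 20 cells in each healthy and acute library. There Ntf3 did not overlap, at 47.5 and 23.4 CPM (the latter 2 UMIs) in healthy and 72.3 and 54.2 CPM in acute libraries. Ptn there overlapped, at 94.9 and 93.8 CPM in healthy and 140 and 86.7 CPM in acute libraries. The part of composition in the changes of the whole class was not tested.

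In fibroblasts 0 of 4 members tested did not overlap in the acute comparison (30.5% of all genes) and 1 of 4 in the chronic comparison (40.6%), which was Mdk, lower by -0.53 ± 0.56 and lowest in the 55 cells of chronic replicate 2. Of the acute values, Mdk was at 1.10 ± 0.54 in fibroblasts, 1.51 ± 0.61 in basal and 1.64 ± 0.67 in intermediate cells (edgeR, unadjusted p = 0.0716, 0.0357 and 0.0443). These rest on acute replicate 2: without it the values were -0.08, 0.29 and 0.11. Acute replicate 2 had the most myofibroblasts, 2722 against 88 to 1050 in the other libraries, and its basal Mdk was 2.54% of its myofibroblast level, the highest share of the 6 libraries. Its fibroblasts had the highest myofibroblast marker sum of the fibroblasts, 2144 CPM. The part of these traits in the Mdk values was not tested.

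In the urothelium, Ngfr of basal cells was lower in both injuries than in both healthy libraries, by -0.78 ± 0.53 acute and -1.06 ± 0.58 chronic (edgeR, unadjusted p = 0.182 and 0.1). Basal Nrn1 was higher in the acute libraries by 0.23 ± 0.24 and lower in the chronic ones by -0.31 ± 0.24. These are the 2 of 4 members that did not overlap in each basal comparison, where 26.7% and 29.4% of all genes did not. In intermediate cells Bdnf was higher in acute by 1.08 ± 0.74 and Nrn1 lower in chronic by -0.53 ± 0.24 (unadjusted p = 0.0649), 1 of 4 members in each, where 25.5% and 32.9% of all genes did not overlap. In superficial cells both members tested overlapped in both comparisons, where 33% and 36.1% of all genes did not. The intermediate chronic value of Nrn1 turned to 0.37 with clusters made without integration, where the basal comparison gave no value.

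**Figure D5:**
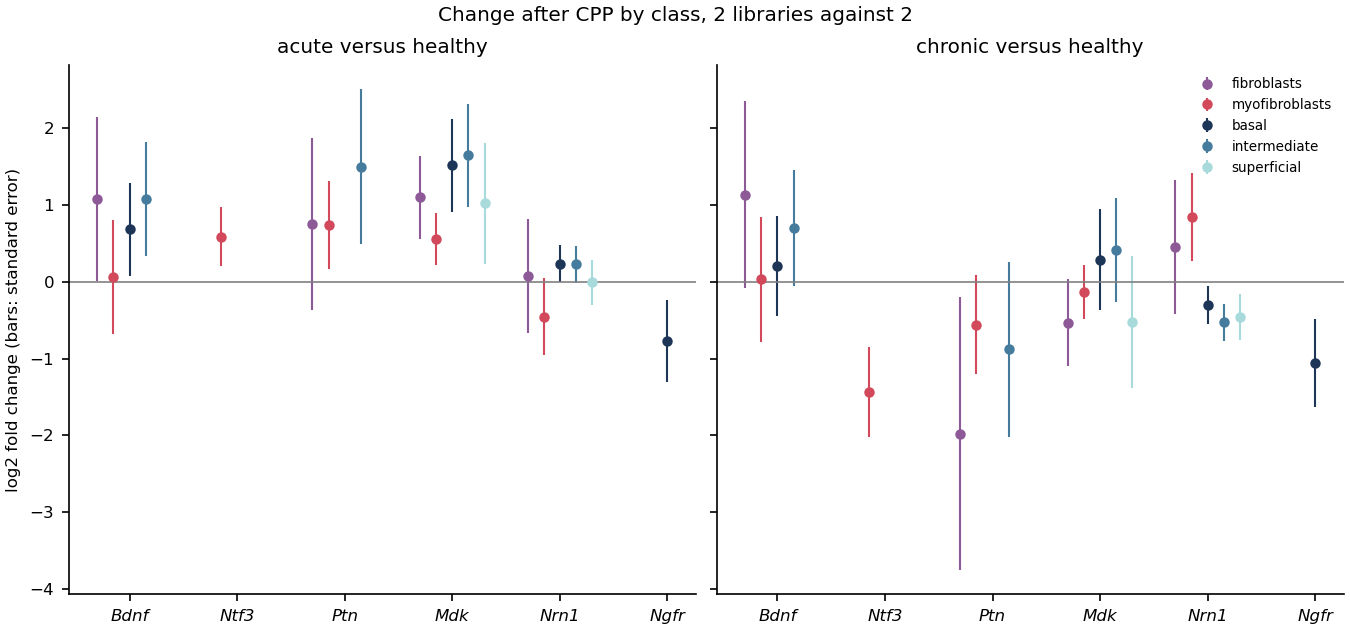
Log2 fold change of the members after CPP against healthy, with standard errors, in the classes where each was tested (edgeR, 2 libraries against 2). Left, acute; right, chronic. No value has an adjusted p under 0.05, and the Ntf3 values are 0.58 and -1.43.

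None of the 58 pathway genes was called by edgeR in any comparison between conditions. Per comparison 31 to 38 of them were tested, and 0 to 8 had an unadjusted p under 0.05.

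Over the means of 12 classes, the genes whose log2 levels were most like those of a member were named for each member, among 9690 genes with a class mean of at least 20 CPM. The correlations are descriptions over 12 points that share libraries. For Bdnf they were Gnai1 (Pearson r = 0.958), Tspan11 (0.953) and Cadps (0.952), for Ntf3 Ednra (0.985), Colec11 (0.983) and Sgip1 (0.976), and for Mdk Igsf10 (0.991), Col12a1 (0.990) and Mmp2 (0.985). For Nrn1 they were Entpd7 (0.971), Igfbp2 (0.969) and Aldh3a1 (0.968), all highest in basal cells. For Ptn they were Eny2 (0.915), Armc1 and Slc39a8 (0.911 each), all highest in dividing mesenchymal cells, and for Ngfr Rab43 (0.862), Ell2 (0.856) and Suclg1 (0.830), each highest in mural and smooth muscle cells, where the Ngfr level rests on 1 UMI. Among the members, Bdnf was most like Mdk (0.888) and Ntf3 most like Ptn (0.762).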

How the data were processed

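The authors aligned 10x Genomics version 2 3′ libraries to mm10 with Cell Ranger 2.1.1 and deposited the unnormalized UMI counts of each of 6 libraries, with genes in rows and cells in columns. Acute replicate 2 lists 20180 genes, against 15065 to 18295 in the other libraries, and its highest Ensembl identifier exceeds theirs. Whether its genes were annotated as in the other libraries was not tested. Mitochondrial and ribosomal genes, and genes that some table does not list, were dropped, and the table of healthy replicate 1 ends within a line, which was left out. Cells were integrated with Seurat 5.3.0 and sctransform 0.4.2 with the members and the pathway list left out of the features, clustered with leidenalg 0.10.2, and named from fixed markers. Called doublets and mixed mesenchymal sub-clusters were left out. By rule, clusters with over 33.3% called doublets, clusters that no marker list named and mixed urothelial sub-clusters were left out too. The cells of each class were added up within a library, where it had 20 or more, and tested with edgeR 4.0.16 in R 4.3.3 (quasi-likelihood test, TMM, filter on low counts, Benjamini-Hochberg adjustment over all genes tested, two-sided). Comparisons between classes kept the library as a block. The SE of a log2 fold change is its absolute value divided by the square root of the F statistic of the quasi-likelihood test. DESeq2 1.42.0, another scaling, no filter, each library left out, a replicate block and clusters without integration were alternatives. Shares were recomputed after thinning to 2000 UMIs per cell. A count of 0 was given the limit that 3 counts allow, and intervals are 95% Wilson intervals, both for counting error only. Which mice went into which library is not given in the sources used here, so p-values measure only the spread between libraries. Between conditions this is the spread within 2 libraries per condition, estimated over all 6. Between classes it is the spread of the class difference over the 6 libraries, with the conditions pooled. By the rule for named genes, all 8 members, pathway genes that passed a test or are a ligand or receptor partner of a member, and for each member the 3 genes most alike over class means of log2(CPM + 1) were named. Some pathway genes are counted in the list but not reported here by name. The members and lists were chosen with earlier results of these data known. The scripts were tested on simulated data.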

Additional observations from a re-analysis of the deposited data

Results flagged for a closer look

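Nrn1 after acute CPP lay on opposite sides of healthy in 2 classes. In basal cells both acute libraries (301 and 331 CPM) were above both healthy ones (281 and 273 CPM), and in myofibroblasts both (10.8 CPM each) were below (11.3 and 21.4 CPM). The log2 fold changes were 0.23 and -0.46, a difference of 0.69 that was not tested. The myofibroblast levels are at the share of the urothelial level that Krt5 also reaches there.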

How the results depend on the processing

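Of 224 alternative counts of members called, 222 kept to within 1.5 times of the main count and 2 were higher: between superficial and intermediate cells, 2 members were called with no filter on low counts and 2 with clusters made without integration, against 1. The main count was 0 in all 10 condition comparisons and in both tests of a difference between fibroblasts and myofibroblasts. Many of the 222 are therefore 0 against 0, which could hardly move with so few genes called at all. The calls for Bdnf, Ntf3, Ptn and Mdk between fibroblasts and myofibroblasts held in every alternative, with log2 fold changes of -4.39 to -3.82, -4.62 to -3.66, -4.69 to -3.52 and -2.32 to -1.78. Bdnf, Ntf3 and Ptn passed the filter on low counts chiefly through the myofibroblasts, so for them this too is a description. Nrn1 between these classes, not called, reversed to 0.41 when mixed mesenchymal sub-clusters were kept, an alternative added after seeing the data, and its intermediate value in the chronic comparison reversed to 0.37 without integration, and the cause was not tested. Without integration the basal class held 0 and 24 acute and 11 and 0 chronic cells, so the basal comparisons between conditions gave no value there. With a replicate block 0 members were called in each of 10 condition comparisons. The differences between replicates 1 and 2 correlated over genes at 0.24 to 0.41 between healthy and acute. With those of chronic they correlated at -0.454 to 0.139. The replicate numbers are not stated to mark a shared batch and for that reason were not taken to pair the libraries. Whether they follow a processing batch was not tested. Over all genes the main edgeR test called 0 to 1 and DESeq2 5 to 58 per condition comparison, and edgeR called up to 49 with no filter on low counts (acute myofibroblasts), 13 without integration (acute fibroblasts), 3 with a replicate block (acute myofibroblasts) and 65 without acute replicate 1 (acute intermediate cells). Depth limits Gdnf, Ntrk2 and Ngfr, and small classes limit chronic mesenchymal values.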
